A study of Mus musculus with 6 samples.

Results

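The sarcomeric myosin heavy chains are the motor proteins of the thick filament of striated muscle, and 8 of their genes were followed here through 6 mouse skin tumours. They are 8 of the 37008 gene or transcript names on the array. The genes were Myh1, Myh2, Myh3, Myh4, Myh6, Myh7, Myh8 and Myh13, and every non-control array probe carrying 1 of these names was kept apart, which gave 18 of the 56605 probes on the array. The family was chosen by the log2 signals and detection calls of these same arrays, in which its genes stood out between the genotypes. The differences between genotypes at its probes are therefore given as a description, with no test.

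Each heavy chain gene marks a kind of muscle fibre or a stage of its development. Myh4, Myh1 and Myh2 encode the chains of the adult fast fibres of types IIB, IIX and IIA, Myh7 that of slow fibres and of the heart ventricle, and Myh6 that of the heart atrium and, in adult mice, of the ventricle too. Myh3 and Myh8 encode the embryonic and the perinatal chain, which developing muscle makes before the adult chains and which regenerating fibres make again. Myh13 is known from the extraocular and laryngeal muscles. In mice a thin sheet of striated muscle, the panniculus carnosus, lies beneath the dermis and fat of the back skin and is rich in fast fibres.

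The tumours were those of male mice labelled P2ry6-/- (3 tumours, called labelled knockout) and P2ry6+/+ (3 tumours, called labelled wild-type). P2ry6 is the gene of a cell-surface receptor that senses extracellular UDP. Both genotypes received a single dose of 195 nmol of the mutagen DMBA in acetone on the shaved back, and from 1 week later 16 nmol of the tumour promoter TPA 2 times weekly until week 22. The labels give no age, strain or deleted exon, and do not say that each tumour came from a separate mouse, so a p-value here measures the spread between these samples, which may be technical. All the tissue was skin tumour taken in bulk, in which fewer muscle cells and less myosin RNA per cell cannot be told apart.

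Log2 signal is given throughout relative to the 75th percentile of each array's probes, so that 0 lies at that percentile, and a probe is called detected on an array where the scanner software found it well above background. On each array 54.2% to 59.4% of non-control spots were detected. The 75th percentile lay between 277.1 and 299.6 units on the labelled knockout arrays and between 322 and 368 units on the labelled wild-type arrays. The targeted gene P2ry6 was no lower in labelled knockout tumours. Its probes at chr7:108086152-108086211 and chr7:108112251-108112310 (mm9) were each higher in labelled knockout, with differences of 0.41 (SE 0.20, limma adjusted p = 0.466) and 0.54 (SE 0.24, limma adjusted p = 0.411). The labels do not place the deletion, so these probes may lie outside it, and every direction below follows the labels. The epidermal keratins were bright in all 6 tumours, with Krt5 between 9.35 and 9.62 in labelled knockout tumours and between 9.23 and 9.55 in labelled wild-type tumours.

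All probes were 60 bases long, and several of the family's probes resemble each other, because the genes are close copies. Myh3, Myh2, Myh1, Myh4, Myh8 and Myh13 stand in that order on chromosome 11 in the RefSeq annotation, with Myh6 and Myh7 on chromosome 14. The pair of probes with the longest run of bases in common was that of Myh8 at chr11:67121925-67121984 and Myh1 at chr11:67037938-67037997 (mm9, plus strand), shown because the Myh1 and Myh8 results rest on them; capitals mark the 19-base run they share.
Myh8 base 5937: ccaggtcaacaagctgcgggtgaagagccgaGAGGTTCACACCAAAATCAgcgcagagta
Myh1 base 5879: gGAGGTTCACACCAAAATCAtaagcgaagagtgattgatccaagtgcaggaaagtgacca
The probes are named by the base of the target transcript at which they start. In the best alignment without gaps these probes overlapped by 30 bases, of which 22 were alike. Outside the family, no probe on the array shared a run longer than 13 bases with the bright probes of Myh1, Myh2 and Myh4, or longer than 12 with that of Myh8. How far RNA of one of these genes binds the probe of another was not tested.

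The next pair shows probes near the 5′ ends of Myh8 (chr11:67092501-67092560) and Myh2 (chr11:66986757-66986816, both mm9, plus strand), neither of which was detected in any tumour; capitals mark the 12-base run they share.
Myh8 base 326: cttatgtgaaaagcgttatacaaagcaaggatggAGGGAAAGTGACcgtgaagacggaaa
Myh2 base 264: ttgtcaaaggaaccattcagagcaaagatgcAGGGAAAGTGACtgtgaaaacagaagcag
Here 42 of 57 overlapping bases were alike. The next probes lie on Myh4 near its 5′ end (chr11:67054219-67054278) and on Myh13 (chr11:67184494-67184553, both mm9, plus strand), and are shown because the first was detected in a single tumour and the second in none; capitals mark 11 bases that Myh13 shares with the Myh8 probe at base 5937.
Myh4 base 203: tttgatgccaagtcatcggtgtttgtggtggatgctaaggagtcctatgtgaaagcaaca
Myh13 base 5739: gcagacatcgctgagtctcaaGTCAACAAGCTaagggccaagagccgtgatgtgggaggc

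Detection split the 18 probes. In all 3 labelled wild-type tumours and in no labelled knockout tumour, 3 probes were detected, 1 each of Myh2, Myh4 and Myh8. The share of all probes on the array with that pattern was 0.495%, against 0.0565% with the opposite pattern. At 4 probes, 1 each of Myh1, Myh2, Myh4 and Myh8, every labelled knockout tumour lay below every labelled wild-type tumour, and 4.51% of all probes on the array did so. Because this contrast chose the family, nothing is read from these counts. At 9 of the 18 probes no tumour gave a detected signal.

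**Figure D1:**
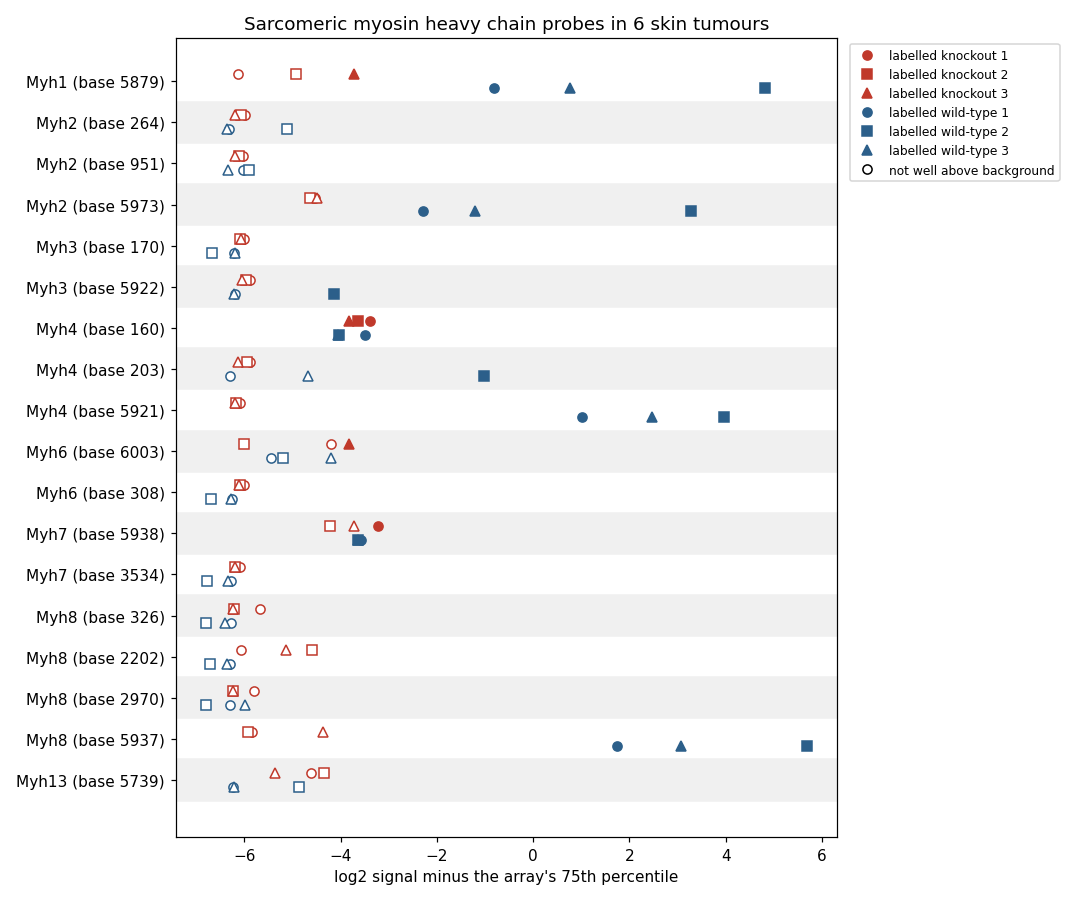
Log2 signal minus the array's 75th percentile (horizontal axis) for each of the 18 probes, named by gene and by the transcript base where the probe starts. Red marks the 3 labelled knockout and blue the 3 labelled wild-type tumours, with open symbols where the probe was not well above background; the blue symbols stand clear of the red at the probes of Myh1 (base 5879), Myh2 (base 5973), Myh4 (base 5921) and Myh8 (base 5937).

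Myh4, the chain of the fastest adult mouse fibres, was read by its bright probe at chr11:67073834-67073893 (mm9, plus strand, starting at base 5921 of the transcript). Its log2 signal was -6.08, -6.17 and -6.19 in labelled knockout tumours 1, 2 and 3, and 1.02, 3.96 and 2.47 in labelled wild-type tumours 1, 2 and 3. The labelled knockout values lay together at the level of undetected probes, the labelled wild-type values were all high, and the groups did not overlap. The means were -6.15 ± 0.06 in labelled knockout and 2.48 ± 1.47 in labelled wild-type (SD, n = 3 each), a difference of -8.63 (SE 0.66). Where a probe was detected on no array of a genotype, only a bound on the fold is given. For it the dim tumours are each set at the dimmest detected probe of their own array, or at the probe's own signal if that is higher. On that footing Myh4 was at least 82.1-fold lower in the labelled knockout tumours.

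Myh1, the chain of the IIX fibres, was read by the single probe printed above. It gave -6.13, -4.93 and -3.72 in labelled knockout tumours 1, 2 and 3, and -0.81, 4.81 and 0.76 in labelled wild-type tumours 1, 2 and 3. Labelled knockout tumour 3 was the only one of its genotype in which Myh1 was detected, and it still lay below every labelled wild-type tumour. The means were -4.93 ± 1.21 in labelled knockout and 1.58 ± 2.90 in labelled wild-type (SD, n = 3 each), a difference of -6.51 (SE 1.38). With the 2 undetected labelled knockout tumours set at the dimmest detected probe of their arrays, the difference was -5.39, or 42.0-fold. The spread within labelled wild-type was wide, since tumour 2 read 49.2-fold above tumour 1.

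Myh2, the chain of the IIA fibres, had its bright probe at chr11:67010910-67010969 (mm9, plus strand, base 5973). It gave -4.53, -4.63 and -4.49 in labelled knockout tumours 1, 2 and 3, and -2.30, 3.27 and -1.21 in labelled wild-type tumours 1, 2 and 3. Labelled wild-type tumour 2 was again far above the other two of its genotype, and the groups did not overlap. The means were -4.55 ± 0.07 in labelled knockout and -0.08 ± 2.95 in labelled wild-type (SD, n = 3 each), a difference of -4.47 (SE 1.30) and at least 13.9-fold lower in labelled knockout. Without labelled wild-type tumour 2 that difference was -2.80.

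Myh8, the perinatal chain, was read by the probe printed above that starts at base 5937. It gave -5.85, -5.91 and -4.37 in labelled knockout tumours 1, 2 and 3, and 1.74, 5.69 and 3.08 in labelled wild-type tumours 1, 2 and 3. It was detected in none of the labelled knockout tumours and in every labelled wild-type tumour, with no overlap. The means were -5.38 ± 0.87 in labelled knockout and 3.50 ± 2.01 in labelled wild-type (SD, n = 3 each). The difference was -8.88 (SE 0.97), at least 166-fold lower in labelled knockout.

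Myh3, the embryonic chain, did not accompany Myh8 in the same way. Its probe starting at base 5922 gave -5.89, -5.97 and -6.05 in labelled knockout tumours 1, 2 and 3, and -6.20, -4.13 and -6.20 in labelled wild-type tumours 1, 2 and 3. Labelled wild-type tumour 2 was the only tumour with a detected signal, and the groups overlapped. Its other probe, at base 170, was detected nowhere.

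The slow and cardiac chains were dim, and their genotypes overlapped at the probes that were detected in any tumour. The Myh7 probe starting at base 5938, which lies on the minus strand of chromosome 14, gave -3.22, -4.22 and -3.72 in labelled knockout tumours 1, 2 and 3, and -3.57, -3.64 and -3.64 in labelled wild-type tumours 1, 2 and 3. The labelled wild-type values fell inside the range of the labelled knockout values, the difference was -0.10 (SE 0.26), and its sign varied between processing settings, from -0.35 to 0.42. It was detected in 1 labelled knockout tumour and in 3 labelled wild-type tumours. The Myh6 probe starting at base 6003 gave -4.20, -6.00 and -3.82 in labelled knockout tumours 1, 2 and 3, and -5.45, -5.19 and -4.20 in labelled wild-type tumours 1, 2 and 3. Only labelled knockout tumour 3 gave a detected Myh6 signal, and the groups overlapped. The other probes of these genes, at base 3534 of Myh7 and base 308 of Myh6, were detected nowhere. The Myh13 probe was detected in no tumour, at -4.62, -4.33 and -5.36 in labelled knockout tumours and -6.24, -4.86 and -6.20 in labelled wild-type tumours.

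**Figure D2:**
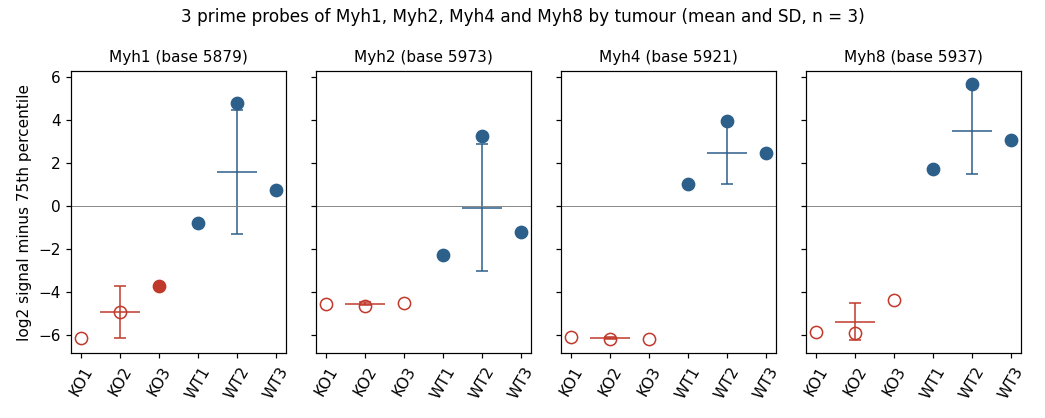
Log2 signal minus the array's 75th percentile (vertical axis) at the bright probes of Myh1, Myh2, Myh4 and Myh8 in each labelled knockout (KO, red) and labelled wild-type (WT, blue) tumour, open where not well above background. Horizontal strokes and bars give the mean and SD of 3 tumours, and labelled wild-type tumour 2 is highest in every panel, at 4.81, 3.27, 3.96 and 5.69.

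The bright probes of Myh1, Myh2, Myh4 and Myh8 all start in the last part of their transcripts, between bases 5879 and 5973, and the other probes of the same genes read differently. The Myh4 probe starting at base 203 gave -5.89, -5.95 and -6.13 in labelled knockout tumours 1, 2 and 3, and -6.29, -1.02 and -4.67 in labelled wild-type tumours 1, 2 and 3. It was detected in labelled wild-type tumour 2 alone, and labelled wild-type tumour 1, in which the base 5921 probe was detected at 1.02, lay lowest of the 6. The Myh4 probe starting at base 160, which the array assigns to a different transcript record from the other Myh4 probes, was detected in all 6 tumours. It gave -3.40, -3.64 and -3.83 in labelled knockout tumours and -3.50, -4.03 and -4.05 in labelled wild-type tumours, overlapping, with a difference of 0.23 (SE 0.22) in the other direction. For Myh2 the probes starting at bases 264 and 951, and for Myh8 those starting at bases 326, 2202 and 2970, were detected in no tumour. The difference between genotypes therefore depends on which probe of a gene is read, and why the probes of a gene part was not tested.

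**Figure D3:**
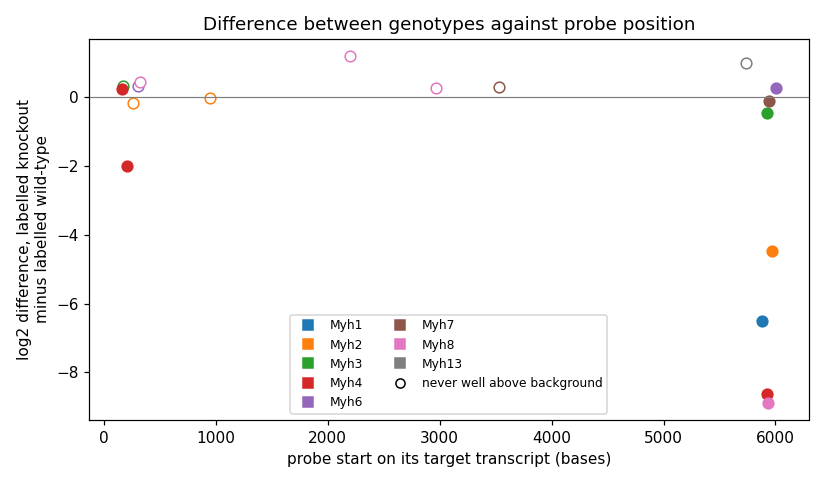
Log2 difference, labelled knockout minus labelled wild-type (vertical axis), against the base of the target transcript at which each of the 18 probes starts (horizontal axis), coloured by gene and open where no tumour was detected. The differences of -8.88, -8.63, -6.51 and -4.47 all belong to probes starting between bases 5879 and 5973.

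Of the 18 probes, 6 entered the fit across the array, which took probes detected on every array of at least 1 genotype. Of these, 5 entered through the labelled wild-type arrays alone a route that favours lower values in labelled knockout, and 1, the Myh4 probe at base 160, entered through both genotypes. Those that entered had a median difference of -5.49, or -5.08 with undetected genotypes at their bound, beside 0.02 over the 29725 probes fitted. Over all 18 probes the median was 0.11, beside 0.18 over the whole array.

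The labelled wild-type tumours differed from each other in the amount of the chains and, as read at the bright probes, in their mixture. At all 4 bright probes tumour 2 was highest, tumour 3 next and tumour 1 lowest. From tumour to tumour the chains did not move by the same factor. Tumour 2 stood above tumour 1 by 49.2-fold for Myh1 and 47.4-fold for Myh2, but by 7.67-fold for Myh4 and 15.5-fold for Myh8. Within an array, the ratio of Myh1 to Myh4 was therefore 6.41-fold higher in tumour 2 than in tumour 1, and that of Myh2 to Myh4 6.17-fold higher, while the ratio of Myh1 to Myh2 differed by 1.04-fold. The changes in the ratios to Myh4 rest on its probe at base 5921. At base 203 Myh4 was 38.6-fold higher in tumour 2 than in tumour 1, where it was not detected. That fold lies near those of Myh1 and Myh2, so these ratio changes depend on which Myh4 probe is read. These are single tumours, with no replicate of either. Over the 6 arrays the log2 signals of the bright probes correlated at r = 0.891 (Myh2 with Myh4) to r = 0.991 (Myh4 with Myh8), values that share the arrays, the gap between genotypes and labelled wild-type tumour 2.

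Leaving out labelled wild-type tumour 2, the differences were -4.90 for Myh1, -2.80 for Myh2, -7.89 for Myh4 and -7.79 for Myh8. With normexp background correction they were -3.86, -2.49, -4.89 and -5.54 in the same order of genes. The bounds without labelled wild-type tumour 2 were 4.36-fold for Myh2, 49.2-fold for Myh4 and 77.9-fold for Myh8, and without tumour 1 they were 30.0-fold, 136-fold and 307-fold.

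The promoters of the bright genes were read because the genes moved together in the contrast that chose the family. All 8 genes had an entry in the RefSeq promoter table (GRCm38.p6), each covering 250 bases before the transcript start and 50 after it, and 4 motifs were searched on both strands. The binding motif of the muscle regulators of the MEF2 family, called the MEF2 box, was found in 3 of 8 promoters, those of Myh4, Myh1 and Myh8, against 3.19% of all 32851 promoters. In all 3 it has the same 10 letters, marked in capitals in the 250 bases before each start: Myh4 at chr11:67237562-67237811, Myh1 at chr11:67199852-67200101 and Myh8 at chr11:67276874-67277123 (GRCm38.p6, plus strand).
Myh4 promoter: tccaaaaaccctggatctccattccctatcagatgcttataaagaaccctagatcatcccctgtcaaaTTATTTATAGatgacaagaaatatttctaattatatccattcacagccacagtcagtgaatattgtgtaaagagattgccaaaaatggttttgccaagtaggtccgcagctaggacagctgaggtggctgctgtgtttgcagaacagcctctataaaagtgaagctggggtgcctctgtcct
Myh1 promoter: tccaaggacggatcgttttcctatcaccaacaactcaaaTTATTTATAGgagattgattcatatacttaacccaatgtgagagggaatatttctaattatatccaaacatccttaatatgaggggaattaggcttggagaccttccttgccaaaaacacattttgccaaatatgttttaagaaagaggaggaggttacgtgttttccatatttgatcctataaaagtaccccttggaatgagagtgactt
Myh8 promoter: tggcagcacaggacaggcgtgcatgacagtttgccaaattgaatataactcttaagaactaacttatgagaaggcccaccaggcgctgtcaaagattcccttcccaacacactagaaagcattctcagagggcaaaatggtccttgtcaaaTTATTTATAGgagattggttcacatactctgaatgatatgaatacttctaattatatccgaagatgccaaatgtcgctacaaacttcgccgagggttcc
Counted from the transcript start, the box begins at position -182 in Myh4, -211 in Myh1 and -99 in Myh8. Because the genes are close copies, these 3 promoters are not independent of each other, and nothing is read from the count. The E-box CANNTG, bound by the MyoD family among others, was in 6 of 8 promoters, against 72.3% of all. The CArG box of serum response factor was in 2 of 8, Myh4 and Myh13, against 1.63%, and TATAAA in 6 of 8, against 13.6%. Read on the other strand, TATAAA lies inside the MEF2 box of these 3 promoters, so the counts of these motifs overlap. Myh2, whose bright probe also differed between genotypes, had no MEF2 box in this window.

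Heavy chains that do not belong to sarcomeres lay within 1 log2 unit of equality at their brightest probes. In the fit over 29725 probes, limma called 0.145% at an adjusted p under 0.05, 0.0875% lower and 0.0572% higher in labelled knockout. At these probes none of the 4 non-sarcomeric genes was called, and 1 had an unadjusted p under 0.05. Another fitted probe of Myh11 and another of Myh14 had an unadjusted limma p of 0.0019 and 0.0080, and neither was called. Myh9, the main nonmuscle chain of epithelial cells, averaged 6.57 ± 0.07 in labelled knockout and 6.47 ± 0.15 in labelled wild-type (SD, n = 3 each), a difference of 0.10 (SE 0.15, limma adjusted p = 0.824). Myh10, another nonmuscle chain, differed by 0.14 (SE 0.21, limma adjusted p = 0.822). Myh14, the third nonmuscle chain, differed by -0.57 (SE 0.28, limma adjusted p = 0.451) at its brighter probe and by 0.76 at the other. Myh11, the smooth muscle chain, differed by -0.96 (SE 0.32, limma adjusted p = 0.303), with its other fitted probes at -1.46 and 0.05. Of Myh7b and Myh15, further heavy chain genes of striated muscle, 0 probes entered the fit.

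The chains' partners in the sarcomere and other genes of fast fibres were counted in 3 lists, and none of their genes passed the threshold. Only the fast-fibre list is restricted to 1 fibre type, and not all of its genes encode parts of the sarcomere. Of the 5 light chain genes fitted, 4 lay lower and 1 higher, with a median of -2.81. Myl1, the essential light chain of fast fibres, differed by -8.29 (SE 1.15), at least 79.3-fold lower in labelled knockout (limma adjusted p = 0.0795), and its other fitted probes differed by -7.55 and -0.11. Myl3, the light chain of slow fibres and the ventricle, differed by -2.95 (SE 1.04, limma adjusted p = 0.329). Of the 7 fast-fibre genes fitted all lay lower without overlap, where 6.91% of fitted probes did so, with a median of -3.56. The troponin C gene of fast fibres, Tnnc2, was at least 175-fold lower (limma adjusted p = 0.0696). Of the 7 thick filament and M-band genes fitted, 5 lay lower and 2 higher, with a median of -2.68. The M-band gene Myom2 read at least 7.80-fold lower in labelled knockout (limma adjusted p = 0.153). The bound for the fast myosin-binding protein gene Mybpc2 was 6.66-fold (limma adjusted p = 0.221). Without labelled wild-type tumour 2 the bounds were 30.6-fold for Myl1, 74.96-fold for Tnnc2, 3.36-fold for Myom2 and 3.22-fold for Mybpc2. At an unadjusted p under 0.05, 3 light chain, 6 fast-fibre and 5 thick filament genes were lower, where 4.89% of all fitted probes were lower and 7.78% higher. Of the fitted genes, 1 light chain, 2 fast-fibre and 3 thick filament genes were detected in no labelled knockout tumour. These entered the fit through the labelled wild-type arrays alone, a route that favours lower values. Other thick filament genes, detected in only some labelled knockout tumours, entered by the same route. The shares over all fitted probes are not limited to such probes.

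Genes of slow and cardiac muscle lay on both sides. Of 10 fitted, 6 lay lower and 4 higher, with a median of -0.09, and none was called, with 1 in each direction at an unadjusted p under 0.05. Nppb, the cardiac natriuretic peptide B, differed by -2.08 (SE 0.71, limma adjusted p = 0.318), without overlap. Tnni1, the slow troponin I, differed by -0.87 (SE 0.48, limma adjusted p = 0.508) and Tnni3, the cardiac one, by 0.64 (SE 0.23, limma adjusted p = 0.339). Genes for folding and turnover of myosin, 5 fitted, had a median of -0.68 and no call, with 1 at an unadjusted p under 0.05, and Unc45b, the myosin chaperone of striated muscle, differed by -0.68 (SE 0.46, limma adjusted p = 0.585).

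Regulators of the muscle programme were mostly dim. Of 12 muscle stem cell and myogenic regulator genes 4 were fitted, none was called, and none had an unadjusted p under 0.05. Mef2c, whose family binds the MEF2 box, differed by -0.79 (limma adjusted p = 0.586). Pax7, Myf5 and Mymk were detected in no tumour. Pax3, which was not fitted, was detected in at most 2 labelled knockout tumours and 1 labelled wild-type tumour at any probe. Myod1, Myog and Myf6, which drive myoblast commitment and differentiation and were picked out after their values were seen, were detected in labelled wild-type tumour 2 alone, at -3.70, -2.50 and -1.94. Chrng and Chrnd, subunit genes of the muscle acetylcholine receptor, of which Chrng is the fetal form, were likewise detected in that tumour alone, at -3.59 and -2.95. Of the same list of 9 embryonic and denervated muscle genes, Chrna1 was detected in 1 tumour of each genotype, Dlk1 in tumours of both genotypes, and Chrnb1 in none. H19, a noncoding RNA of fetal tissues, gave 2.56, -1.26 and -0.79 in labelled knockout tumours 1, 2 and 3, and -0.87, 3.55 and -1.13 in labelled wild-type tumours 1, 2 and 3, so that 1 tumour of each genotype stood high. Labelled wild-type tumour 2 was also the only tumour with detected Myh3. Of the embryonic and denervated muscle list, 3 genes were fitted and none was called, with 0 at an unadjusted p under 0.05.

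The gene whose signal over the 6 arrays was most like the mean profile of the 6 fitted heavy chain probes was Myl1 (r = 0.999), followed by Tnnt3 at 1 of its probes (r = 0.998) and Tnnc2 (r = 0.996). The others among the 10 most like were Aldh3a2 (r = 0.992), Myom2 (r = 0.991), Apobec2 (r = 0.991), Ttn (r = 0.989), Cox8b (r = 0.987), Fkbp4 (r = 0.987) and Fbxo2 (r = 0.986). These correlations over 6 arrays describe likeness only, since all values share the arrays. Aldh3a2, a fatty aldehyde dehydrogenase, and Fkbp4, a cochaperone, followed the shape of the profile at a far smaller scale, with differences of -0.63 and -0.67 (limma adjusted p = 0.211 and adjusted p = 0.221).

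**Figure D4:**
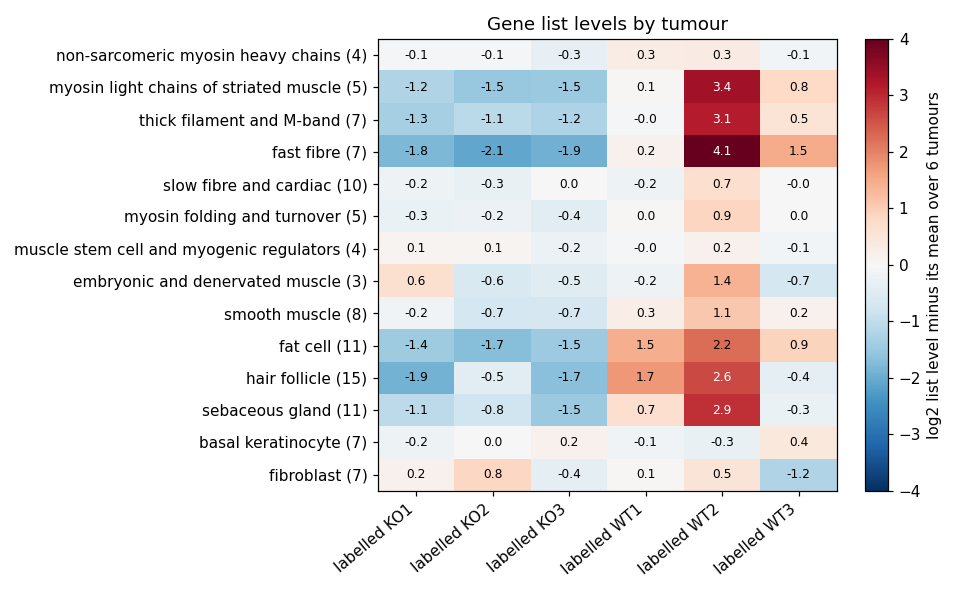
Mean log2 level of the fitted genes of each list in each tumour minus the list's mean over the 6 tumours (colour, and the number in each cell), with labelled knockout (KO) tumours left of labelled wild-type (WT) tumours and the number of genes fitted in brackets. Light chain, thick filament and fast-fibre genes are high in labelled wild-type tumour 2, at 3.4, 3.1 and 4.1, as are fat cell, hair follicle and sebaceous gland genes, at 2.2, 2.6 and 2.9.

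Markers of other tissues that lie beneath or within back skin were counted in the same way. Of the fat cell list, 11 of 12 genes were fitted, 9 lay lower and 2 higher, and Adipoq, Cfd and Car3 fell, by at least 4.66-fold, 53.3-fold and 39.6-fold (limma adjusted p = 0.00689, adjusted p = 0.00769 and adjusted p = 0.0161). Adipoq, Cfd and Car3 were detected in no labelled knockout tumour. They entered the fit through the labelled wild-type arrays alone, a route that favours lower values in labelled knockout. With normexp Cfd alone kept its call (limma adjusted p = 0.0336, against 0.121 for Adipoq and 0.143 for Car3), and Car3 missed the threshold without any 1 of the labelled knockout tumours (limma adjusted p = 0.0684 to 0.0981), without labelled wild-type tumour 1 (adjusted p = 0.0591) and with no filter (adjusted p = 0.0633). The bound for Car3 was 21.6-fold without labelled wild-type tumour 2 and 63.4-fold without tumour 3. The summed fat cell signal, in multiples of the array's 75th percentile, was 180 to 468 in labelled knockout and 309 to 507 in labelled wild-type. Fabp4, named here because it makes up most of that sum, gave 174 to 461 in labelled knockout and 289 to 482 in labelled wild-type, and without it the sums were 4.72 to 6.56 in labelled knockout and 19.9 to 40.8 in labelled wild-type. Of the sebaceous gland list all 11 genes were fitted and lay lower, with none called, 8 at an unadjusted p under 0.05 (12.7% of all fitted probes in either direction), and sums of 18.0 to 29.9 in labelled knockout and 34.7 to 189 in labelled wild-type. Of the hair follicle list 15 of 16 genes were fitted and 14 lay lower, with none called, 6 at an unadjusted p under 0.05, and sums of 19.9 to 24.9 in labelled knockout and 21.7 to 319 in labelled wild-type. Of the smooth muscle list 8 of 10 genes were fitted and 7 lay lower, with none called and 5 at an unadjusted p under 0.05. Its sums were 31.4 to 40.1 in labelled knockout and 51.0 to 70.7 in labelled wild-type, and its markers Myocd and Lmod1 were detected in no tumour. In the fat cell, hair follicle and sebaceous gland lists no gene lacked detection everywhere. The basal keratinocyte list, with a median of 0.14, and the fibroblast list, with a median of 0.43, held no call, with 1 and 0 genes at an unadjusted p under 0.05. The mean log2 level of the fat cell, hair follicle and sebaceous gland lists was highest in labelled wild-type tumour 2, as at the bright heavy chain probes. That level was higher in labelled wild-type tumour 1 than in tumour 3, the reverse of the order at those probes. For the fat cell list this order depends on the measure. Its sums were 309, 375 and 507 in labelled wild-type tumours 1, 2 and 3. Without Fabp4 they were 19.9, 40.8 and 25.0, the order of the bright heavy chain probes. The part of these tissues, and of how much tissue beneath the tumour was taken, in the heavy chain result was not tested. The position numbers in each array's barcode were read as slide column and slide row, which the labels do not state. By that reading labelled wild-type tumours 1, 2 and 3 lay in rows 1, 1 and 2. Labelled knockout tumours 1, 2 and 3 lay in rows 2, 3 and 3. Row 2 alone holds both genotypes. With row as a block, added after the data were seen, that row sets the difference, labelled knockout tumour 1 minus labelled wild-type tumour 3, which was -6.88 for Myh1, -3.33 for Myh2, -8.55 for Myh4 and -8.93 for Myh8. In that fit limma called 0 of 29725 probes, with 3290 at an unadjusted p under 0.05, and the adjusted p was 0.158 for Adipoq, 0.231 for Cfd and 0.290 for Car3.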

How the data were processed

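The array files hold spot intensity on a linear scale as deposited. The processed signal used has its background subtracted and surrogate values for dim spots, per the file headers. The submitters' processing notes name Agilent Feature Extraction, version 10.7.1.1. The deposited value table holds log2 values. All its columns have a median of 4.969, and against the signal of the same array they gave r from 0.99945 to 0.99997. Its normalization tool was not given in the sources used here. Coordinates are mm9.

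Spots flagged as outliers were dropped and those of the same probe averaged; values are log2 processed signal, from which the array's 75th percentile was subtracted. Probes detected on every array of at least 1 genotype (29725 of 56605) were fitted with limma 3.58.1 (lmFit, eBayes; R 4.3.3, data.table version 1.17.8), labelled knockout minus labelled wild-type, two-sided, Benjamini-Hochberg adjustment over all fitted probes, threshold 0.05. The fit was tested on simulated data. The number of arrays limits the precision. The arrays lay on 1 slide and shared 1 scan.

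Members and the 15 gene lists were chosen with earlier results of these data known. Each listed gene was read at its fitted probe with the highest mean. Genes named are every member probe, P2ry6, the 4 non-sarcomeric chains, some of the up to 4 genes of smallest p per list, and the 10 most like the members' mean profile; Krt5, Fabp4 and the unfitted list genes named were chosen after their values were seen. The result of 1 listed gene is not reported here. Names came from RefSeq: 32994 probes by accession, 10224 by symbol and 520 by synonym, while 12867 kept the array's name. Alternatives were normexp (offset 50), centring on the median, quantile normalization, other filters, the highest-mean probe, trend and robust eBayes, array weights, the value table, slide column, slide row (added later) or replicate number as a block, and each tumour left out.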

Additional observations from a re-analysis of the deposited data

How the results depend on the processing

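Labelled knockout tumours lay below labelled wild-type tumours at 4 member probes, and leaving out 1 tumour gave 4 to 5; among probes detected on all 6 arrays the count was 0, of the 1 member probe left. The median difference of the fitted member probes, -5.49, was -3.17 with normexp, -4.17 with array weights and -6.64 to -3.85 with a tumour left out. It was 0.11 with no filter (all 18 probes) and 0.23 among probes detected on all 6 arrays (1 probe), settings that change which probes enter. The 3 calls among the 102 partner genes fitted by limma (44 at an unadjusted p under 0.05, or 43.1%, against 12.7% of all fitted probes) became 1 with normexp, 7 with array weights, 0 of 75 among probes detected on all 6 arrays (24 at an unadjusted p under 0.05, against 11.7% of all), and 2 to 7 with a tumour left out, 7 without labelled wild-type tumour 2. Over all probes the 43 calls became 15 with normexp, 22 with no filter, 6 among probes detected on all 6 arrays, 147 with array weights and 13 to 178 with a tumour left out: 178 without labelled wild-type tumour 2, and 26, 20 and 13 without labelled knockout tumours 1, 2 and 3. The causes were not tested. The partner genes come from lists chosen with earlier results of these data known. Some entered the fit through the labelled wild-type arrays alone. Nothing is therefore read from their share of low p-values beside that of all fitted probes. With the replicate number as a block there were 0 partner calls (50 at an unadjusted p under 0.05, against 14.4% of all) and 6 calls over all probes. With the slide row as a block, added after seeing the data, there were 0 partner calls (17 at an unadjusted p under 0.05, against 11.1% of all) and 0 calls over all probes by limma (3290 at an unadjusted p under 0.05), and row 2 alone set the difference, with 1 tumour of each genotype. Deviations of same-numbered tumours correlated at 0.096, 0.245 and 0.143, and each tumour correlated best with its own number. Whether the numbers pair the tumours was not settled, and the main fit did not pair them. At the bright probes of Myh1, Myh2, Myh4 and Myh8 the difference was negative in every setting that kept the probe. Signals near background limit the folds to bounds.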
